A study of Mus musculus with 4 samples.

Results

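The 10 genes described here encode plasma membrane carriers of amino acids that mouse embryonic stem cells (ESCs) express. They were chosen by symbol: *Slc7a1* and *Slc7a3* for arginine and lysine, *Slc3a2*, *Slc7a5* and *Slc7a7* for the heterodimeric exchangers, *Slc1a4* and *Slc1a5* for small neutral amino acids, *Slc38a1* and *Slc38a2* for sodium-driven glutamine and alanine uptake, and *Slc6a9* for glycine. They are 10 of the 19645 features with a deposited value, and all 10 were among the 12990 features tested. The study asked what is lost from ESCs without BMAL1, the transcription factor of the circadian clock encoded by *Arntl*. RNA from 2 wild-type (WT) and 2 *Bmal1* knockout (KO) libraries was sequenced after depletion of ribosomal RNA. The KO cells came from CRISPR-Cas9 editing with a guide to exon 5 of *Arntl* and were picked as 1 clone with a frameshift deletion. Both genotypes were grown without feeder cells in serum with leukaemia inhibitory factor, glutamine and nonessential amino acids, so the effect of the genotype and a particularity of this clone cannot be told apart.

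Amino acids cross the plasma membrane through carriers that either exchange one amino acid for another or use the sodium gradient to concentrate them. SLC7A5, the light chain of the exchanger LAT1, reaches the cell surface only when bound to the heavy chain SLC3A2 (CD98), and it imports leucine and other large neutral amino acids in exchange for intracellular glutamine. Glutamine enters through carriers such as SLC1A5, SLC38A1 and SLC38A2, and leucine and arginine inside the cell are sensed by the kinase complex mTORC1. When amino acids run short, the kinase GCN2 raises the transcription factor ATF4, which acts through amino acid response elements in genes such as *Slc7a1*, *Slc7a5*, *Slc3a2* and *Slc38a2*.

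*Arntl*, the edited gene, was measured at 6.05 and 6.29 FPKM in WT and at 5.95 and 5.92 FPKM in KO (fragments relative to transcript length and to the mapped fragments of the library, in replicates 1 and 2). KO differed from WT by -0.06 on the log2 scale, with a standard error of 0.10 (adjusted p = 0.750 by limma, adjusted over all tested features by the method of Benjamini and Hochberg), and by 0.017 when FPKM were rescaled to the features with a gene symbol. A frameshift deletion need not lower the RNA of its gene, so this level does not check the labels. The 10 markers of undifferentiated ESCs summed to 7163 and 6980 FPKM in WT and to 6827 and 6393 FPKM in KO. *Nanog*, *Sox2*, *Zfp42*, *Klf4*, *Utf1* and *Tdgf1* were lower in both KO libraries. *Tfcp2l1* and the more abundant feature of *Esrrb* were higher in both. *Dppa5a*, the highest of the list, and *Pou5f1* overlapped between the genotypes. Markers of fibroblasts summed to between 1.94 and 3.58 FPKM over the 6 of 8 analysed, and those of primitive endoderm to between 9.20 and 10.5 FPKM. Macrophage markers summed to at most 0.540 FPKM without *Cd68*, whose value is merged with that of neighbouring genes. Trophoblast markers summed to between 30.7 and 34.9 FPKM. Among early neural markers, *Tubb3* was at 130.4 and 124 FPKM in WT and at 82.5 and 74.0 FPKM in KO, which set the sum of the list (133 and 127 against 95.01 and 88.1 FPKM). By contrast, *Sox1* was at 1.32 and 1.38 FPKM in WT and at 6.91 and 7.61 FPKM in KO, and *Pax6*, *Neurod1* and *Nes* were also higher in both KO libraries. Features without a symbol took 26.8% and 37.3% of all FPKM in WT and 19.0% and 18.1% in KO. RNA of the Y-linked gene *Ddx3y* was at 0.235 and 0.403 FPKM in WT and at 16.4 and 20.6 FPKM in KO, and *Eif2s3y* at 1.40 and 2.04 FPKM against 44.6 and 53.1 FPKM. The sources used here do not say whether the KO clone and the WT libraries come from the same parental line, so genotype and line cannot be told apart in any value below. Whether these differences contribute to the values of the transporters was not tested.

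Across the transporters, FPKM was lower in both KO libraries for *Slc7a1*, *Slc7a3*, *Slc3a2*, *Slc7a5*, *Slc1a4* and *Slc6a9*, and higher for *Slc38a1* and *Slc38a2*. Among these, *Slc7a1* alone passed the test and fell by 0.42 on the log2 scale. Thus 1 of 10 was lower at an adjusted p under 0.05, where 5.6% of all tested features were, and 0 of 10 were higher, where 6.85% were. At an unadjusted p under 0.05 in the same limma test, 5 of 10 were lower, against 15.5% of all tested features, and 0 were higher, against 14.1%. No member changed more than 2-fold with an adjusted p under 0.05, as 4.14% of tested features did. Both KO libraries lay below both WT libraries for 6 of 10 members, against 31.7% of tested features, and above them for 2, against 27.0%. Among 6853 features with a symbol and a mean within the range of the members, the KO libraries lay below in 33.4%. The median log2 fold change was -0.25 for the members and -0.02 for all tested features. When FPKM were rescaled to the features with a symbol, 5 members lay below and 2 above, and *Slc6a9* now overlapped. The shares of all tested features were then 23.0% and 35.2%. In a bulk sample, fewer cells that express a gene and less RNA per cell cannot be told apart.

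The levels of the members spanned from *Slc7a5*, with a mean of 170 FPKM over the 4 libraries, to *Slc6a9*, with 6.02 FPKM. FPKM is scaled to transcript length, so levels of different genes can be set side by side within a library. Next to *Slc7a5* came its heavy chain *Slc3a2* at 149 FPKM and *Slc7a3* at 106 FPKM, which placed all 3 at or above the level of 92.4% of the tested features with a symbol. *Slc38a2* followed at 59.3 FPKM, *Slc7a7* at 50.6 FPKM and *Slc1a5* at 48.5 FPKM. The libraries of *Slc7a7* and *Slc1a5* overlapped in both genotypes, so the order of these neighbours was not resolved. *Slc7a1* followed at 33.0 FPKM, *Slc38a1* at 26.2 FPKM and *Slc1a4* at 11.98 FPKM. *Slc7a1* and *Slc38a1* were apart in WT but overlapped in KO. The 10 members summed to 730 and 681 FPKM in WT and to 633 and 598 FPKM in KO. *Slc7a5*, *Slc3a2* and *Slc7a3* made up 66.7% and 65.7% of that sum in WT and 62.4% and 61.9% in KO. Both the member sum and the share of its most abundant genes were thus lower in both KO libraries. The sum of all features was also lower there, at 872196 and 840017 FPKM against 991944 and 1183010 FPKM in WT. The member sum was not scaled to these totals.

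**Figure D1:**
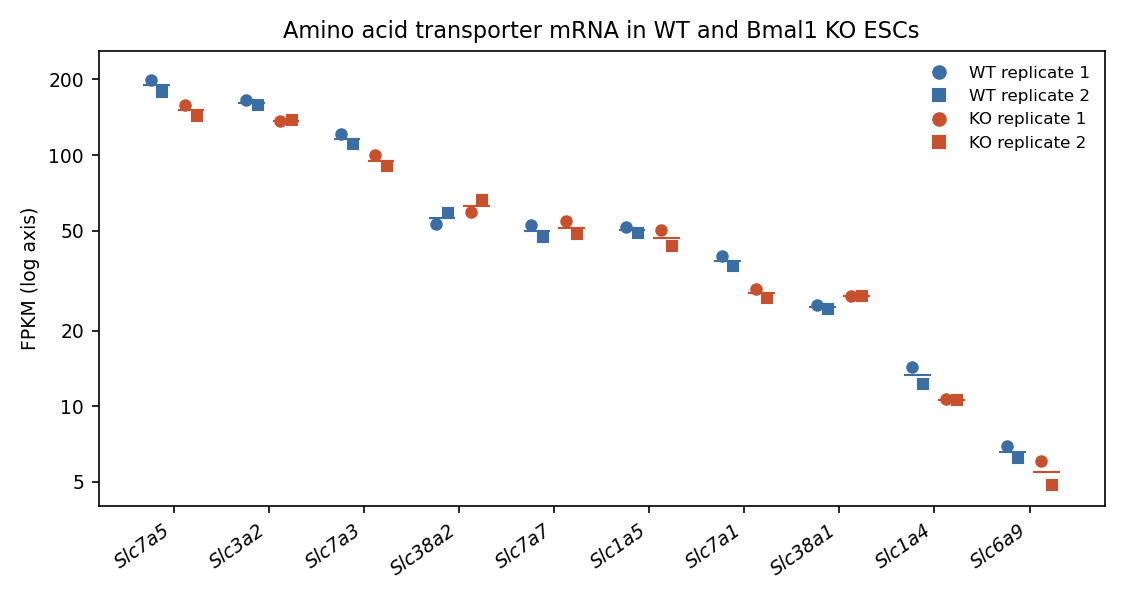
FPKM on a log axis for the 10 transporters, ordered by mean level, with WT libraries in blue and KO libraries in red, circles for replicate 1, squares for replicate 2 and a short line at each genotype's mean of 2 libraries. The KO points lie below both WT points for 6 genes and above them for *Slc38a1* and *Slc38a2*, and the genotypes overlap for *Slc7a7* and *Slc1a5*.

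Promoter sequence of 4 members is shown because *Slc7a1* is the one that passed the test, *Slc3a2* encodes the chain shared by the exchangers, and *Slc1a4* and *Slc7a7* are the members whose windows hold letters of the amino acid response element. Each stretch runs from 130 bases before to 20 bases from the most upstream start listed for the gene in the RefSeq table (GRCm38.p6, 5′ to 3′ on the strand of the gene, minus for all 4), with matches to the element in capitals. They lie at chr5:148399885-148400034 for *Slc7a1*, chr19:8713878-8714027 for *Slc3a2*, chr11:20332694-20332843 for *Slc1a4* and chr14:54417925-54418074 for *Slc7a7*. RefSeq gave 1 start for *Slc3a2*, and its stretch lies inside the annotated gene (chr19:8706882-8723369), not at the gene's upstream end. The *Slc7a7* stretch lies wholly upstream of the annotated gene (chr14:54369442-54417780) and of the measured feature (chr14:54360710-54417854).
*Slc7a1*: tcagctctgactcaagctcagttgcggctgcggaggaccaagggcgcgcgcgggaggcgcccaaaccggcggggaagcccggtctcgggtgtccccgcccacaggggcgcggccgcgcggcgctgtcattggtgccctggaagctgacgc
*Slc3a2*: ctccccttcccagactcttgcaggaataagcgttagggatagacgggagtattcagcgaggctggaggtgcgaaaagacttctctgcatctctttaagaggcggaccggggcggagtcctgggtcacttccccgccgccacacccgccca
*Slc1a4*: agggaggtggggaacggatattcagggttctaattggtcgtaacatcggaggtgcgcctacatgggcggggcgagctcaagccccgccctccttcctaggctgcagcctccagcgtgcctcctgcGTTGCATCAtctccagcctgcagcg
*Slc7a7*: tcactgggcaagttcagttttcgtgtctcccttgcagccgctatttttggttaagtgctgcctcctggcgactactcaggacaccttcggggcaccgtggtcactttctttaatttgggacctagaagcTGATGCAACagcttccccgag
The RefSeq table held 13 windows for 6 of the 10 members (250 bases before to 50 after a start), and *Slc7a3*, *Slc7a5*, *Slc1a5* and *Slc38a1* are not in it. The amino acid response element was searched as TGATGNAAN on both strands. It was found in 3 of the 13 windows, which belong to *Slc1a4* and *Slc7a7*, and in 3.95% of all 32851 windows. The *Slc7a7* windows with a match overlap, and the same TGATGCAAC site counts in each. These 3 windows are therefore not independent. In *Slc1a4* the match GTTGCATCA reads on the opposite strand and covers positions -5 to 4 around the start. In *Slc7a7* the match TGATGCAAC covers positions -1 to 8 from the most upstream start and -243 to -235 from another start. A further match, TGATGAAAG, lies at -141 to -133 from the most upstream start, outside the printed stretch. The E-box CACGTG, the letters BMAL1 and CLOCK are known to bind, was found in 0 of the 13 windows and in 7.15% of all windows. A match or its absence describes these letters in these windows only. The genes with a match did not share a direction: KO libraries lay below WT for *Slc1a4* and overlapped WT for *Slc7a7*. The printed stretches differed in base composition, with 73.3% G and C in *Slc7a1*, 62.7% in *Slc1a4*, 60% in *Slc3a2* and 52.7% in *Slc7a7*, against a median of 54% over all windows.

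*Slc7a1* encodes CAT1, the widely expressed carrier of arginine, lysine and ornithine (ENSMUSG00000041313.14, chr5:148327410-148399904 of GRCm38, minus strand). Its level was 39.5 and 36.1 FPKM in WT and 29.4 and 26.9 FPKM in KO. Both KO libraries were low and the genotypes did not overlap. *Slc7a1* fell by 0.42 on the log2 scale (standard error 0.09, 95% interval -0.65 to -0.20, adjusted p = 0.0366 in limma), and KO held 0.746 times the WT level. The change was more negative than that of 89.1% of tested features. The call was lost without WT replicate 1 (log2 fold change -0.36, adjusted p = 0.0919) and without KO replicate 2 (-0.36, adjusted p = 0.107). It was also lost with a variance that does not follow expression (adjusted p = 0.0897), with no minimum level (0.0649) and after rescaling to features with a symbol (0.0635), while the direction stayed the same.

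*Slc7a3* encodes CAT3, a further cationic amino acid carrier of ESCs (ENSMUSG00000031297.14, feature chrX:101079150-101086488, minus strand). It was measured at 121 and 111 FPKM in WT and at 99.7 and 90.1 FPKM in KO, with both KO libraries low. The log2 fold change was -0.29 (standard error 0.09, 95% interval -0.51 to -0.08) and did not pass the test across features (adjusted p = 0.0893, limma). The 408 tested features of chromosome X with a symbol had a median log2 fold change of -0.02, and so had the 11532 of the autosomes. *Slc7a3* exceeded *Slc7a1* by 3.07-fold and 3.08-fold in the WT libraries and by 3.39-fold and 3.35-fold in the KO libraries. The ratio was higher in both KO libraries, with RNA of both genes lower there. The coding sequences of the pair are 63.8% identical over 1803 aligned bases, and their longest shared run is 16 bases.

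*Slc3a2* encodes the heavy chain CD98 (ENSMUSG00000010095.13, chr19:8706882-8723369, minus strand). Its FPKM were 166 and 158 in WT and 136 and 138 in KO. The KO replicates were close to each other and both lay below the WT replicates. The difference on the log2 scale was -0.24 (standard error 0.07, 95% interval -0.41 to -0.06, adjusted p = 0.0856 in limma). The noncoding host gene *Snhg1*, which lies on the opposite strand with 38 bases between the features, was at 257 and 243 FPKM in WT and 208 and 203 FPKM in KO. Its log2 fold change of -0.28 also missed the threshold (adjusted p = 0.0597), and its ratio to *Slc3a2* was 1.55, 1.54, 1.53 and 1.48 in WT replicates 1 and 2 and KO replicates 1 and 2.

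*Slc7a5* encodes the LAT1 light chain (ENSMUSG00000040010.10, feature chr8:121881146-121907686, minus strand) and was the most abundant member in every library. It was at 199.8 and 179 FPKM in WT and at 159 and 143 FPKM in KO, so the KO libraries were low and did not reach the WT range. On the log2 scale KO differed from WT by -0.33 (standard error 0.09, 95% interval -0.56 to -0.10, adjusted p = 0.0785 in limma). When 1 library was left out, this difference ranged from -0.41 to -0.25. *Slc7a5* exceeded *Slc3a2* by 1.21-fold and 1.13-fold in WT and by 1.16-fold and 1.04-fold in KO, and these ratios overlapped between the genotypes.

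*Slc7a7* encodes y+LAT1, a light chain that exports cationic amino acids in exchange for neutral ones and sodium (ENSMUSG00000000958.10, chr14:54369442-54417780, minus strand). It was at 52.4 and 47.2 FPKM in WT and at 54.5 and 48.4 FPKM in KO, and the genotypes overlapped. Its log2 fold change was 0.05 (standard error 0.10, 95% interval -0.19 to 0.28, adjusted p = 0.789 in limma). It turned to -0.030 without WT replicate 2 and to -0.041 without KO replicate 1. The files give *Slc7a7* and its neighbour *Oxa1l*, which overlaps it on the other strand, the same interval, chr14:54360710-54417854, so their reads may not be fully separated. *Oxa1l* was at 28.0 and 27.4 FPKM in WT and at 31.9 and 29.2 FPKM in KO.

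The ratios between the light chains are given as a description. *Slc7a5* exceeded *Slc7a7* by 3.81-fold and 3.79-fold in the WT libraries and by 2.91-fold and 2.95-fold in the KO libraries, so the ratios were apart by more than the spread within either genotype. With 2 libraries against 2, an exact two-sided permutation test of a single value cannot give a p below 0.333, and none is given for the ratios. The values of *Slc7a7* carry the shared interval with *Oxa1l* named above. Of the summed FPKM of 6 light chains that pair with SLC3A2 (*Slc7a5*, *Slc7a6*, *Slc7a7*, *Slc7a8*, *Slc7a10* and *Slc7a11*), *Slc7a5* made up 73.9% and 73.5% in WT and 70.2% and 70.1% in KO. *Slc7a7* made up 19.4% in each WT library and 24.1% and 23.8% in KO. *Slc7a6*, the light chain y+LAT2 and no member here, was at 17.8 and 16.8 FPKM in WT and at 12.4 and 12.2 FPKM in KO. It fell by 0.49 on the log2 scale (adjusted p = 0.0213, limma). The cystine carrier xCT, *Slc7a11*, was at 0.247 to 0.321 FPKM and *Slc7a8* at 0.0822 to 0.165 FPKM in the 4 libraries, below the minimum for testing. The sum of the 6 light chains was 270 and 243 FPKM in WT and 226 and 204 FPKM in KO. Set against *Slc3a2*, that sum was 1.63 and 1.54 in WT and 1.66 and 1.48 in KO, and this ratio overlapped between the genotypes.

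**Figure D2:**
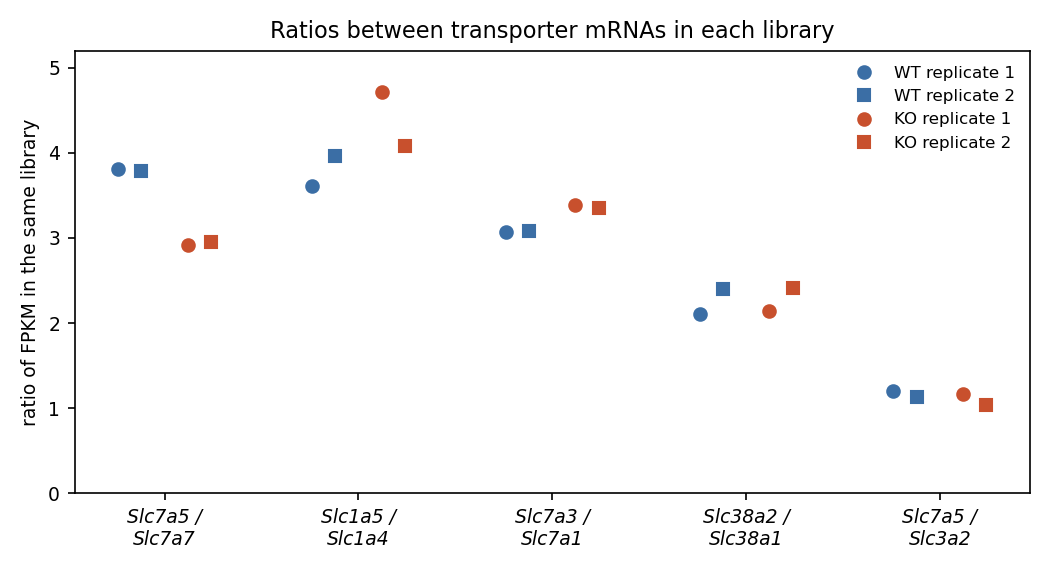
Ratio of the FPKM of 2 transporter genes within each library, with WT in blue, KO in red, circles for replicate 1 and squares for replicate 2, on a linear axis from 0. The ratio of *Slc7a5* to *Slc7a7* was 3.79 or more in WT and 2.95 or less in KO, whereas *Slc38a2* to *Slc38a1* and *Slc7a5* to *Slc3a2* overlapped between the genotypes.

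*Slc1a4* encodes ASCT1, an exchanger of alanine, serine, cysteine and threonine (ENSMUSG00000020142.12, chr11:20302180-20332713, minus strand). It was measured at 14.3 and 12.3 FPKM in WT and at 10.7 and 10.6 FPKM in KO, with both KO libraries below WT. The log2 fold change was -0.32 (standard error 0.11, 95% interval -0.58 to -0.06, adjusted p = 0.113 in limma). The 2 WT replicates differed by more than the 2 KO replicates. *Slc1a5* encodes ASCT2, the exchanger that also carries glutamine (ENSMUSG00000001918.17, feature chr7:16781346-16798274, plus strand). It was at 51.7 and 48.9 FPKM in WT and at 50.4 and 43.3 FPKM in KO, and KO replicate 1 lay between the WT replicates. Its log2 fold change was -0.11 (95% interval -0.35 to 0.13, adjusted p = 0.516, limma) and 0.0030 without KO replicate 2. The ratio of *Slc1a5* to *Slc1a4* was 3.61 and 3.97 in WT and 4.72 and 4.08 in KO. The ratio was higher in KO, although WT replicate 2 and KO replicate 2 were close. The coding sequences of this pair are 66.2% identical, with a longest shared run of 20 bases.

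*Slc38a1* and *Slc38a2* encode SNAT1 and SNAT2, which use the sodium gradient to bring in glutamine, alanine and serine. Both are minus-strand genes of chromosome 15, *Slc38a1* at chr15:96571418-96642913 (ENSMUSG00000023169.15) and *Slc38a2* at feature chr15:96687387-96699750 (ENSMUSG00000022462.7), with 44473 bases between their features. *Slc38a1* was at 25.3 and 24.4 FPKM in WT and at 27.6 and 27.5 FPKM in KO. *Slc38a2* was at 53.3 and 58.6 FPKM in WT and at 59.2 and 66.2 FPKM in KO. These were the only members with both KO libraries above both WT libraries, and for *Slc38a2* the gap between the genotypes was smaller than that between replicates. The log2 fold change was 0.15 for *Slc38a1* (95% interval -0.04 to 0.34, adjusted p = 0.258 in limma). It was 0.16 for *Slc38a2* (95% interval -0.07 to 0.39, adjusted p = 0.303 from the same test). Both intervals include 0. The ratio of *Slc38a2* to *Slc38a1* was 2.11 and 2.40 in WT and 2.15 and 2.41 in KO. These ratios overlapped between the genotypes.

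*Slc6a9* encodes GlyT1, the sodium- and chloride-dependent glycine carrier (ENSMUSG00000028542.17, feature chr4:117835258-117872470, plus strand), and was the least abundant member. It was at 6.95 and 6.21 FPKM in WT and at 6.06 and 4.87 FPKM in KO. KO replicate 2 was the lowest, and KO replicate 1 lay just under the WT range. After rescaling to features with a symbol, the genotypes overlapped. The log2 fold change was -0.27 (standard error 0.14, 95% interval -0.62 to 0.08, adjusted p = 0.272 in limma), the widest interval among the members. The files give *Ccdc24* the same interval, at 0.146 to 0.6999 FPKM in the 4 libraries.

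**Figure D3:**
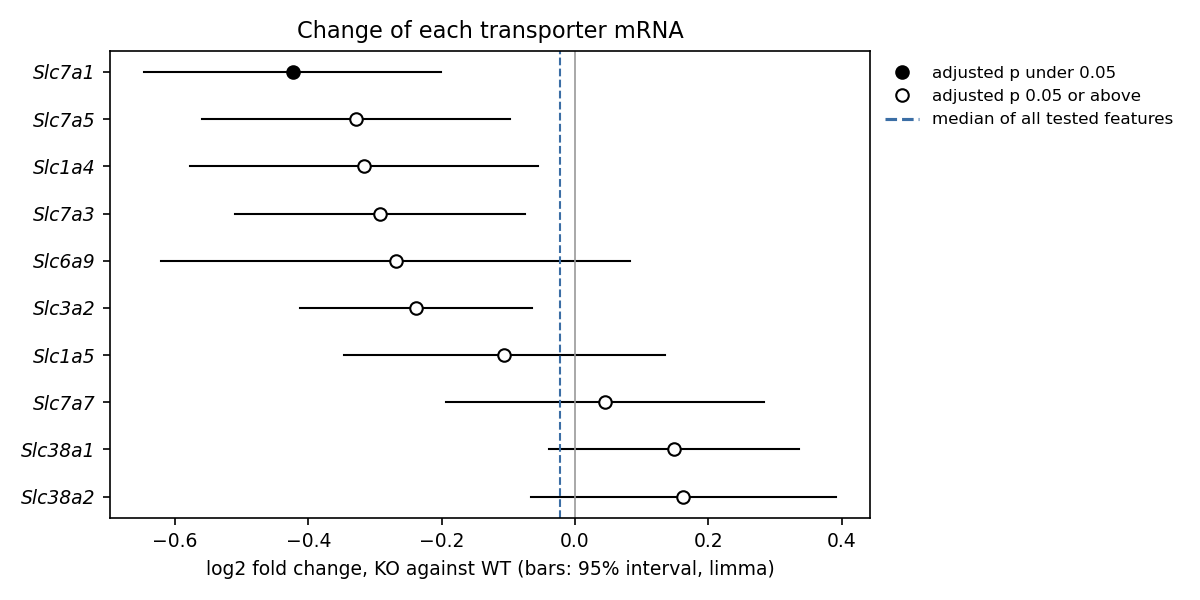
Log2 fold change of KO against WT for each of the 10 transporters, with bars for the 95% interval from limma, a filled point for an adjusted p under 0.05, a grey line at 0 and a dashed line at the median of all tested features (-0.02). The values run from -0.42 for *Slc7a1*, the one filled point, to 0.16 for *Slc38a2*.

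Of the other amino acid transporters of the plasma membrane, 31 of 40 listed genes had a value, and 14 were tested. Of these, 3 fell and 0 rose at an adjusted p under 0.05 (limma, 5.6% and 6.85% of all tested features), and 5 were lower and 0 higher at an unadjusted p under 0.05 (15.5% and 14.1% of all). Their median log2 fold change was -0.03, but -0.23 for a minimum mean of 1 FPKM and -0.15 to -0.01 when 1 library was left out, the lowest without WT replicate 2. *Slc7a6* was given above. *Slc38a4*, the system A carrier SNAT4, lies beyond *Slc38a2* with 295072 bases between the features, and was at 65.9 and 69.5 FPKM in WT and at 36.1 and 38.6 FPKM in KO. It fell by 0.86 on the log2 scale (adjusted p = 0.00480), while KO libraries lay above WT for the neighbouring *Slc38a1* and *Slc38a2*. *Slc1a3*, the glutamate carrier GLAST, fell by 0.77 (adjusted p = 0.0136), from 7.28 and 6.76 FPKM to 4.24 and 3.92 FPKM.

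Among 14 tested carriers of the lysosome and mitochondrion, 3 rose and 3 fell, where 6.85% and 5.6% of all tested features did. The median log2 fold change was 0.01, and it was -0.13 without KO replicate 1 and 0.20 without KO replicate 2. *Slc38a7*, a lysosomal glutamine exporter, rose by 0.85 on the log2 scale (adjusted p = 0.0155, limma), and the cystine exporter *Ctns* rose by 0.60 (adjusted p = 0.0383). The mitochondrial ornithine carrier *Slc25a15* fell by 0.52 (adjusted p = 0.0164) and the serine carrier *Sfxn1* by 0.38 (adjusted p = 0.0308). The call of *Ctns* was lost without WT replicate 2 (adjusted p = 0.0835) or KO replicate 1 (0.0997), and that of *Sfxn1* without any 1 of the 4 libraries (0.0520 to 0.119). Without KO replicate 1, 1 rose and 1 fell, and without WT replicate 2, 1 fell.

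Of 38 tested genes of amino acid sensing by mTORC1, 5 rose and 3 fell (6.85% and 5.6% of all tested features), with a median log2 fold change of 0.03. *Rragd*, which encodes a Rag GTPase that recruits mTORC1 to the lysosome, was at 2.09 and 2.06 FPKM in WT and at 7.23 and 7.80 FPKM in KO. It rose by 1.81 on the log2 scale (adjusted p = 0.00215, limma) and was the only gene of these lists past 2-fold. Of the sestrins, *Sesn3* rose by 0.87 (adjusted p = 0.0111) and *Sesn1* fell by 0.63 (adjusted p = 0.0285). *Sesn2*, whose product is known as a leucine sensor, was at 53.9 and 44.7 FPKM in WT and at 56.9 and 49.0 FPKM in KO. It did not pass (log2 fold change 0.11, adjusted p = 0.610). *Gatsl3*, which encodes the arginine sensor CASTOR1, fell by 0.65 (adjusted p = 0.0228). The call of *Sesn1* was lost without WT replicate 1 (adjusted p = 0.0668) or KO replicate 1 (0.0625). The list held 3 rises without WT replicate 1 or KO replicate 2 and 1 fall without WT replicate 1 or KO replicate 1.

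The 25 tested genes of the amino acid response had a median log2 fold change of -0.08. Of these, 1 rose and 2 fell, counts near the shares of all tested features (6.85% and 5.6%). Both KO libraries lay below WT in 13 of the 25 and above in 3, against 31.7% and 27.0% of all tested features. At an unadjusted p under 0.05 in limma, 7 were lower and 1 was higher, against 15.5% and 14.1%. *Atf4* was at 197 and 186 FPKM in WT and at 195 and 188 FPKM in KO, with a log2 fold change of 0.00 (adjusted p = 1.00, limma). Its target *Asns*, asparagine synthetase, was at 196 and 194 FPKM in WT and at 161 and 167 FPKM in KO and did not pass (log2 fold change -0.25, adjusted p = 0.0737). *Chac1*, which degrades glutathione, fell by 0.51 (adjusted p = 0.0189), and *Psat1*, of serine synthesis, fell by 0.38 (adjusted p = 0.0236). *Mthfd2*, of mitochondrial folate metabolism, rose by 0.76 (adjusted p = 0.00554). It lies in a stretch of chromosome 6, from *Eif2ak3* to *Gata2* (chr6:70844522-88207032), that was set with earlier results of these data known. There, 97 of 102 tested features with a symbol had a positive log2 fold change, with a median of 0.88. Over all tested features, 6081 of 12990 did, with a median of -0.02. Because of that choice, the values of the stretch are a description and no test. The call of *Psat1* was lost without WT replicate 2 (adjusted p = 0.0524), KO replicate 1 (0.0808) or KO replicate 2 (0.0544), and leaving out any 1 of these left 1 fall in the list. Without WT replicate 1 or KO replicate 2 it held 2 rises. Of the 20 cytosolic aminoacyl-tRNA synthetases, which load amino acids onto tRNA, 0 passed in either direction in limma and 4 were lower at an unadjusted p under 0.05, where 15.5% of all tested features were. Their KO libraries lay below WT in 13 of 20 and above in 1, against 31.7% and 27.0% of all tested features, and their median log2 fold change was -0.10.

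Among 19 tested enzymes of glutamine and glutamate, 3 rose and 1 fell (6.85% and 5.6% of all tested features). *Gls2*, the liver-type glutaminase, fell by 0.58 on the log2 scale (adjusted p = 0.0132, limma). The transaminases *Got1* and *Gpt2* rose by 0.50 (adjusted p = 0.0147) and 0.44 (adjusted p = 0.0216), and *Gfpt1*, the entry to hexosamine synthesis in the same stretch of chromosome 6, rose by 0.73 (adjusted p = 0.0158). The call of *Gpt2* was lost without KO replicate 2 (adjusted p = 0.0637), and 2 genes fell when either WT replicate was left out. Of 18 tested enzymes of arginine and polyamines, the products of the cationic amino acids carried by SLC7A1 and SLC7A3, 4 fell and 2 rose (5.6% and 6.85% of all tested features), with a median log2 fold change of -0.14. *Ass1*, argininosuccinate synthase, fell by 0.56 (adjusted p = 0.00881), and *Odc1*, the first enzyme of polyamine synthesis, fell by 0.38 (adjusted p = 0.0332). *Smox* and *Sat1*, which oxidise and acetylate polyamines, rose by 0.77 (adjusted p = 0.0223) and 0.55 (adjusted p = 0.0232). *Odc1* was lost without WT replicate 2 (adjusted p = 0.114), KO replicate 1 (0.108) or KO replicate 2 (0.0580), and the list held 2 falls without WT replicate 1 and 1 fall without any other library. Some genes stand in more than 1 list. With a variance that does not follow expression, 11 of the 22 genes named from these lists that passed did not pass.

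**Figure D4:**
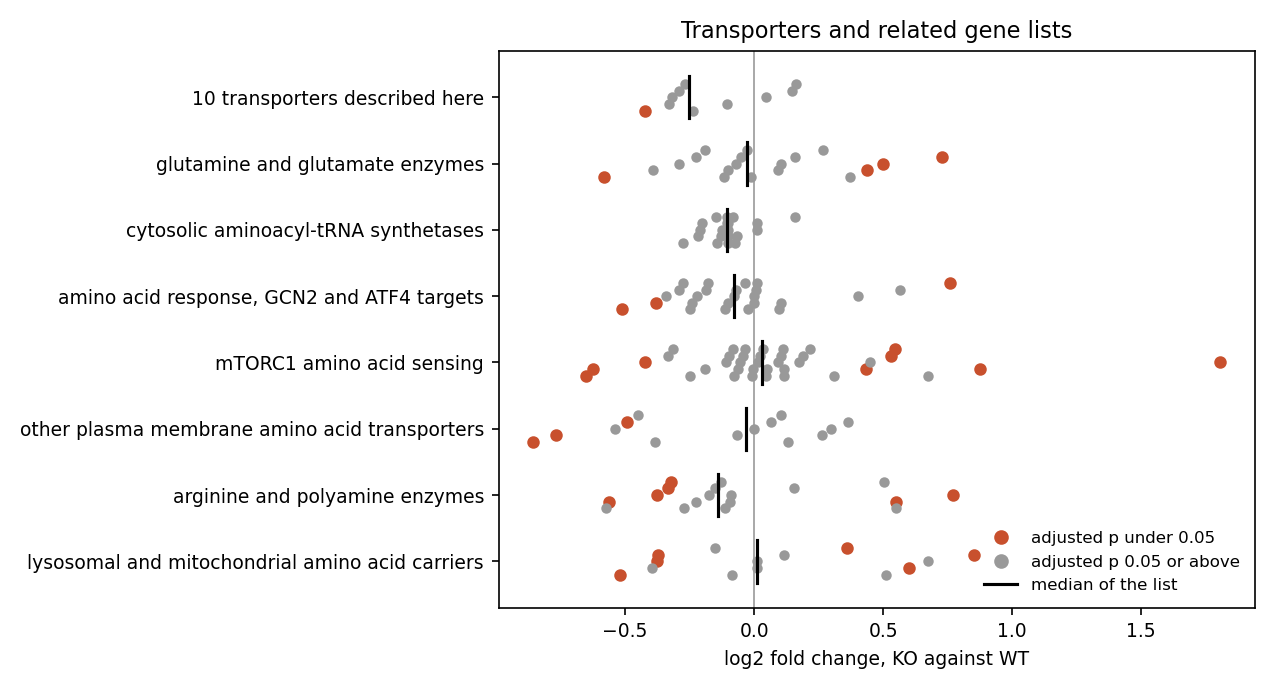
Log2 fold change of KO against WT for each tested gene of the 10 transporters and of 7 related lists, with a red point for an adjusted p under 0.05 in limma, a grey point for any other gene and a black bar at the median of the list. The median of the transporters, -0.25, is the lowest of the 8, and *Rragd* at 1.81 is the point farthest to the right.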

How the data were processed

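The authors aligned reads from Ribo-Zero-depleted total RNA to GRCm38 with TopHat2 2.1.1 and Bowtie2 2.3.0, estimated the FPKM of each feature with Cufflinks 2.2.1 and deposited these FPKM for 19645 features in each of 4 libraries (2 WT, 2 KO, grouped by their labels). Reads cannot be recovered from FPKM, so the depth is unknown and precision was judged from replicates. The methods call the replicates biological, but the labels name no separate cultures, so p-values measure the spread between these libraries. Values were compared as log2(FPKM + 0.1), a scale that understates the change of low features, for 12990 features with a mean of at least 0.5 FPKM. The test was limma 3.58.1 (R 4.3.3, variance trend, empirical Bayes, all 4 libraries, no covariates). P-values were adjusted across the tested features by the Benjamini-Hochberg method, and each adjusted p comes from this test. "Rose" and "fell" mean an adjusted p under 0.05. The test was checked on simulated data.

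Named were all members, *Arntl*, *Slc7a6*, *Slc7a8*, *Slc7a11*, *Atf4*, *Asns* and, from each list, up to 4 genes with the largest absolute log2 fold change among those past the threshold with a mean of at least 1 FPKM in 1 genotype. *Snhg1*, *Oxa1l* and *Ccdc24* were added as neighbours, and *Sesn2* as a sestrin known as a leucine sensor. The members and lists were chosen with earlier results of these data known. Alternatives were another pseudocount, filter, scaling or variance model, a replicate block, FPKM summed by symbol, leaving out each library, and, chosen after seeing the data, rescaling to features with a symbol. Gene positions and coding sequences came from GENCODE M21, aligned with biopython 1.88, and promoters from RefSeq. File starts count from 0 and were raised by 1. Identity of the proteins was planned but replaced by that of the coding sequences, since no protein table was used here. Python 3.11.15, pandas 2.3.3, numpy 2.4.6 and matplotlib 3.10.9 were used.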

Additional observations from a re-analysis of the deposited data

How the results depend on the processing

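The direction of *Slc7a1*, *Slc7a3*, *Slc3a2*, *Slc7a5*, *Slc1a4*, *Slc6a9*, *Slc38a1* and *Slc38a2* held under every alternative and without each library. Leaving out 1 library at a time, the log2 fold change ranged from -0.49 to -0.36 for *Slc7a1*, from -0.41 to -0.25 for *Slc7a5*, from -0.041 to 0.13 for *Slc7a7* and from -0.22 to 0.0030 for *Slc1a5*, and *Slc7a7* (-0.030 without WT replicate 2, -0.041 without KO replicate 1) and *Slc1a5* turned sign. The member median stayed between -0.31 and -0.17. For *Slc7a1*, the call was lost at a log2 fold change of -0.42 with no filter or no variance trend and at -0.35 after rescaling to features with a symbol, where *Arntl* turned to 0.017. In each of these 3 settings 0 members were lower at an adjusted p under 0.05, against 1, and leaving out a library gave 0 to 2. Labels give WT and KO the same replicate numbers, but nothing says that equal numbers were processed together, and the replicate differences of WT and KO correlated across features at r = 0.071 and rho = 0.387. With the replicate number as a block, 5 members were lower and 1 higher: *Slc7a3* (-0.29, adjusted p = 0.00676), *Slc3a2* (-0.24, 0.0155), *Slc7a5* (-0.33, 0.00530), *Slc1a4* (-0.32, 0.0331) and *Slc38a2* (0.16, 0.0281) joined *Slc7a1*. Over all tested features, 890 were higher and 728 lower at an adjusted p under 0.05. These became 1807 and 2245 under the replicate block and 571 and 380 with no filter, and 457 were lower with no variance trend. Also over 2-fold were 353 higher and 185 lower, which became 146 and 85 at a pseudocount of 1, and 257 to 323 were lower without 1 library. Among the values of the related lists, the all-feature median and *Arntl*, 256 alternatives left the value alike, 65 moved it and 1 reversed the sign of *Arntl*. A change of sign was counted for *Arntl* only, and medians near 0 also changed sign. After rescaling to features with a symbol, the median of the glutamine and glutamate enzymes turned from -0.03 to 0.05. That of the other plasma membrane transporters turned from -0.03 to 0.04, and that of all tested features from -0.02 to 0.05. Alike meant within 1.5 times for counts and within the replicate spread for medians. For *Arntl* it meant the same sign and the same side of the threshold. The causes of these shifts were not tested. Depth is unknown, so low features such as *Slc7a11* cannot be called absent.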
